A study of Bos taurus with 8 samples.

Results

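Heparan sulfate is a long sulfated sugar chain that cells build on a small set of core proteins and display at their surface. The chain starts on a short linker, is lengthened by the EXT1 and EXT2 co-polymerase, and is then modified by NDST, epimerase and O-sulfotransferase enzymes, so that its sulfation pattern decides which proteins it binds. Syndecans are transmembrane core proteins and glypicans are held by a lipid anchor. In pluripotent cells, heparan sulfate is known as a co-receptor that lets FGF2 engage its receptors, and vitronectin, the coating used here, has a heparin-binding domain.

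The genes described here are 10 named rows of the deposited count table, of 32637 genes with values: the polymerase genes EXT1 and EXT2, the N-deacetylase and N-sulfotransferase gene NDST1, the syndecans SDC1 to SDC4 and the glypicans GPC3, GPC4 and GPC6. They were followed in lines A, C, D and E of bovine embryonic stem cells (bESCs), all XX, derived from early or full blastocysts on MEF (irradiated CF1 mouse embryonic fibroblasts, a feeder layer). Each line was sequenced in 5% O2 on MEF at passage 15 to 17 and again in 5% O2 in feeder-free culture on vitronectin at passage 20 to 22, which gave 4 libraries per condition. The paper's methods add Activin A to the medium for feeder-free culture, whereas the sample titles carry 1 medium name, NBFRA, for both conditions, so matrix, passage and possibly medium changed together and cannot be told apart. The methods also mention sequencing batches and state that no further batch correction was made. The batch of each library was not known here, so batch may differ between conditions too. Of the 10 genes, 10 passed the filter on low counts, and all were compared.

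Levels are given as CPM (TMM-scaled counts relative to the library total), which compare a gene between libraries but not genes with each other, because transcript lengths were not used here. Total counts ran from 44268717 to 102351560, the largest being the feeder-free library of line D. Pluripotency genes marked every library, with POU5F1 at 1807 to 2341 CPM on MEF and 1725 to 1907 CPM in feeder-free culture, though the list shifted down: its 7 genes had a median log2 change of -0.30, close to that of the genes described here. The groups were separated for 4 of the 7, SOX2, SALL4, LIN28A and LIN28B, all lower without feeders, against 8.36 percent of all genes tested lower and 6.21 percent higher. None of the 7 reached the 1.5-fold threshold used below with an adjusted p below 0.05, but SALL4 missed it narrowly, at -0.58 on the log2 scale (edgeR unpaired adjusted p = 0.0426), and in the fit paired by line SALL4, SOX2 and LIN28B had adjusted p of 0.00614, 0.0436 and 0.0456. Markers of other lineages moved in part. The 5 trophoblast genes summed to 21.0 to 36.7 CPM on MEF and 41.1 to 113 CPM without feeders, nearly all of it KRT7, which the paired fit called higher (log2 change 1.46, adjusted p = 0.0129), while CDX2 had 0 counts in all 8 libraries. The 6 mesoderm genes summed to 2.31 to 8.30 CPM and 7.60 to 11.9 CPM. Of these, EOMES went from 0.77 to 6.69 CPM on MEF to 6.26 to 9.53 CPM without feeders and was called higher when paired (edgeR paired adjusted p = 0.0307). The others passed in neither fit: TBX6 had a log2 change of -0.06 and MIXL1 was higher in 2 lines and lower in 2. TBXT, MESP1 and HAND1 had too few counts to be tested. The 5 endoderm and hypoblast genes went the other way, from 4.09 to 15.0 CPM on MEF to 3.51 to 6.01 CPM without feeders. FOXA2 among them had a log2 change of -0.93 and passed in neither fit. The 4 neural genes summed to under 1 CPM in every library. The part of these marker shifts in the results was not tested. The feeder cells are fibroblasts, which also express syndecans and glypicans, so fibroblast genes were read beside them. Over 20 fibroblast genes the summed level was 624 to 728 CPM on MEF and 383 to 1417 CPM in feeder-free culture. DPT had 0 counts in all libraries on MEF and at most 6 in a feeder-free library. TWIST2 and FAP had 0 counts in all feeder-free libraries, and 2 to 32 and 0 to 6 counts on MEF. All of these had too few counts to be tested. Of the 17 fibroblast genes tested, the paired fit described next called COL3A1 and POSTN higher and COL1A2 and PRRX1 lower, and the unpaired fit called 0. COL1A2, a fibrillar collagen chain, was at 0.68 to 4.65 CPM on MEF and at most 0.41 CPM without feeders. In bulk RNA, fewer cells of a type and less RNA per cell cannot be told apart.

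None of the 10 genes passed both thresholds, an adjusted p below 0.05 and a 1.5-fold change, in edgeR's quasi-likelihood test of feeder-free against MEF on condition alone, which called 0.724 percent of all 15744 genes tested higher and 1.00 percent lower, 1.73 percent in all. In that test 4 of the 10 had an unadjusted p under 0.05, all lower (EXT1, EXT2, SDC4 and GPC6), against 11.4 percent of all genes lower and 10.2 percent higher, 21.6 percent in all. When the libraries were paired by line (replicate block), 2 of the 10, SDC4 and GPC6, fell and 0 rose, where that fit called 4.53 percent of all genes lower and 5.52 percent higher. At the adjusted p alone it was still 2 lower and 0 higher, against 8.12 and 7.67 percent of all genes. DESeq2 and edgeR's likelihood ratio test, without pairing, each called 2 of the 10 lower, and limma-voom called 0. Over all 15744 genes DESeq2 called 516 lower and 695 higher, the likelihood ratio test 389 and 448, and limma-voom 150 and 79. The test on condition alone called 158 lower and 114 higher. Over the 10 genes the median of the log2 changes was -0.28 (range -0.82 to 0.44), and over all genes tested it was 0.01. The median of the 10 was -0.13 when paired by line, -0.16 without the MEF library of line E, -0.16 when line A lacked its feeder-free library, and -0.07 to -0.36 when the paired fit left out a line.

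The groups did not overlap for 3 of the 10, EXT1, SDC4 and GPC6, each lower in feeder-free culture, where 8.36 percent of all genes were separated in that direction and 6.21 percent in the other. EXT1, EXT2, SDC4, GPC4 and GPC6 were lower in 4 of 4 lines, 5 of the 10, against 20.7 percent of all genes, and 0 of the 10 were higher in 4 of 4 lines, against 20.2 percent. The 2 called genes belong to different core protein families.

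**Figure D1:**
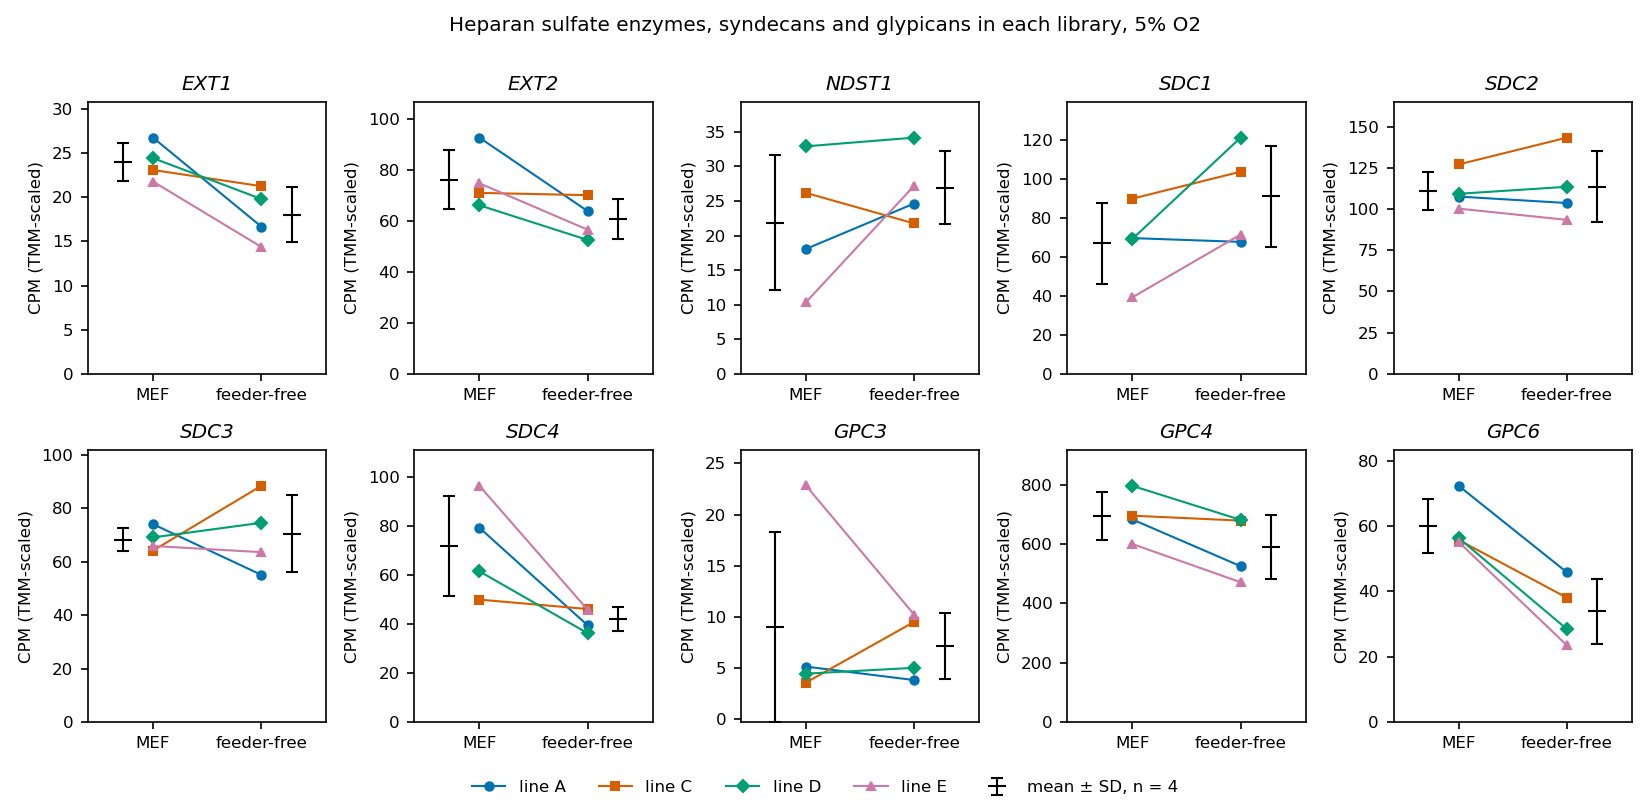
Level of each of the 10 genes (CPM after TMM scaling, linear axis) in the 4 libraries on MEF and the 4 in feeder-free culture, with the 2 libraries of a line joined and the mean ± SD of each group in black. GPC6, SDC4 and EXT1 lay lower in every feeder-free library than in any on MEF, while SDC2 and SDC3 crossed, and GPC3 was set apart by line E on MEF at 22.9 CPM.

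EXT1 and EXT2 encode the partners of the Golgi complex that adds alternating glucuronic acid and N-acetylglucosamine to the growing chain. EXT1, located on chromosome 14 (46163651 to 46477877, assembly ARS-UCD2.0, as for all positions here), was measured on MEF at 26.8 CPM in line A, 23.1 in C, 24.4 in D and 21.8 in E. Without feeders it was at 16.7, 21.3, 19.8 and 14.4 CPM in the same order. Every feeder-free library was below every library on MEF, by the least in line C. The mean went from 24.0 ± 2.13 CPM to 18.03 ± 3.10 CPM (SD, n = 4), and the log2 fold change was -0.41 (SE 0.16, with edgeR's unpaired quasi-likelihood adjusted p = 0.168). Paired by line the log2 fold change was -0.43 and the adjusted p 0.0690, so EXT1 passed in neither fit. EXT1 is on a list of genes that the study chose in part on these libraries, and its span overlaps an uncharacterized gene, LOC132342146.

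EXT2, on chromosome 15 from 74203811 to 74352953, was also lower in 4 of 4 lines, but with overlapping groups. Its levels on MEF were 92.8 CPM in line A, 71.1 in C, 66.2 in D and 74.9 in E. In feeder-free culture they were 63.9, 70.2, 52.6 and 56.6 CPM. Line A had the largest difference, a log2 ratio of -0.54, and line C the smallest, -0.02. The log2 fold change was -0.33 (SE 0.14, edgeR unpaired adjusted p = 0.224) and -0.32 paired by line (adjusted p = 0.0927).

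NDST1 removes acetyl groups from the new chain and sulfates the freed amines, the step that opens it to further sulfation. The gene lies on chromosome 7 from 61815017 to 61902934. It was measured on MEF at 18.1 CPM in line A, 26.2 in C, 32.9 in D and 10.3 in E, and without feeders at 24.6, 21.8, 34.2 and 27.2 CPM. The lines differed more than the conditions: line E had the lowest level on MEF and a log2 ratio of 1.39, whereas line C had -0.27. The log2 fold change of 0.30 (SE 0.32, edgeR unpaired adjusted p = 0.641) was 0.06 without the MEF library of line E. NDST2, the other N-sulfotransferase gene tested, had a log2 fold change of -0.08, and NDST3 and NDST4 had too few counts to be tested.

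Among the syndecans, whose short cytoplasmic tails link the matrix to the cytoskeleton and whose outer domains carry the chains, SDC4 was the one called. SDC4 is known as the syndecan of focal adhesions, where it acts with integrins. The gene lies on chromosome 13 from 73669857 to 73691258 and overlaps no other annotated gene. On MEF its level was 79.4 CPM in line A, 50.01 in C, 61.6 in D and 96.6 in E. Without feeders the 4 lines were at 39.4, 46.2, 36.2 and 45.8 CPM, all below the lowest value on MEF. The range thus narrowed: the line highest on MEF, E, and the line lowest there, C, ended close to each other.

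The mean of SDC4 went from 71.9 ± 20.4 CPM to 41.9 ± 4.88 CPM (SD, n = 4), and the log2 fold change was -0.78 (SE 0.20, edgeR unpaired adjusted p = 0.0683). Paired by line it fell by 0.74 on the log2 scale (SE 0.16, edgeR paired adjusted p = 0.0160). The paired call was kept without line C, at an adjusted p of 0.0132, and lost without line A, D or E, at 0.0507, 0.0588 and 0.0537. Line C was the line with the smallest log2 ratio, -0.12, against -0.76 to -1.08 in the others.

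SDC1, the syndecan of epithelial cells, lies on chromosome 11 from 78629631 to 78653584 and was the member with the largest upward value. Its levels were 69.6 CPM in line A, 89.8 in C, 69.0 in D and 39.1 in E on MEF. Feeder-free levels were 67.6, 103.6, 121.1 and 71.4 CPM. The log2 ratios were 0.81 and 0.87 in lines D and E, 0.21 in line C and -0.04 in line A. The log2 fold change was 0.44 (SE 0.27, edgeR unpaired adjusted p = 0.384), and 0.46 paired by line (adjusted p = 0.0803). Without line A the paired fit called it higher, with a log2 fold change of 0.63 and an adjusted p of 0.0338. Whether SDC1 and SDC4 differ in their change was not tested.

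SDC2, the syndecan typical of mesenchymal cells, and SDC3, that of neural tissue, had means that differed between conditions by less than their spread. SDC2, on chromosome 14 from 67586062 to 67707885, was at 100.3 to 127.2 CPM on MEF and 93.5 to 143.4 CPM in feeder-free culture. Line C was highest in both conditions and line E lowest in both. SDC3, on chromosome 2 from 122667127 to 122702779, was at 64.2 to 74.1 CPM on MEF, and the feeder-free lines spread wider, from 55.1 CPM in line A to 88.5 CPM in line C. Each was higher in 2 of 4 lines. Their log2 fold changes were 0.03 and 0.04, with standard errors of 0.15 each.

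**Figure D2:**
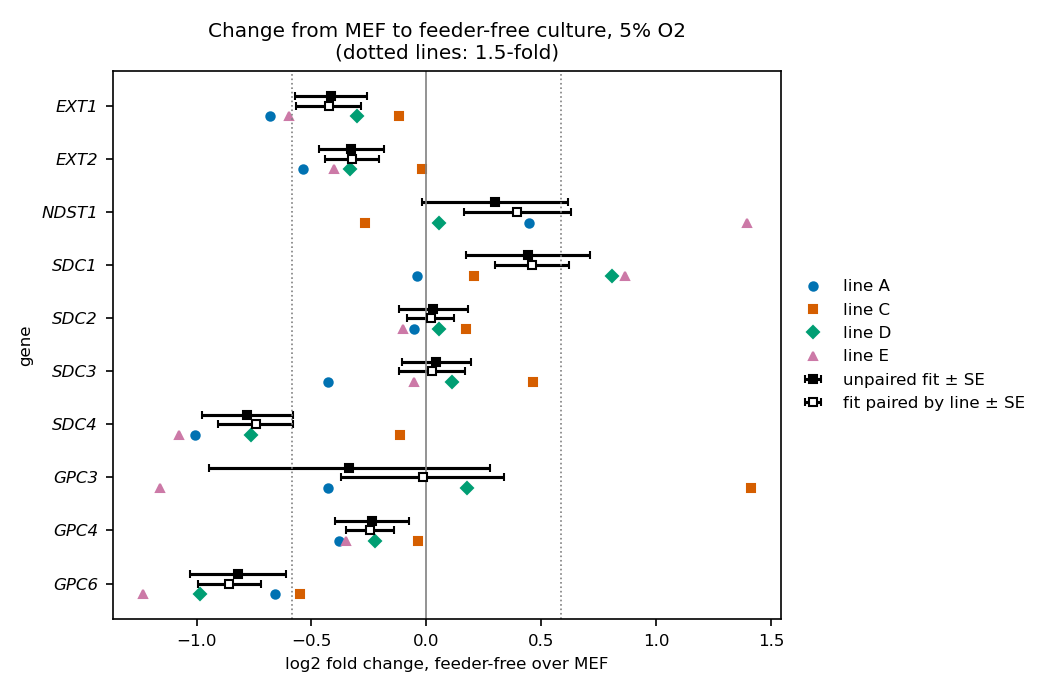
Log2 fold change of each of the 10 genes, feeder-free over MEF: filled squares with standard errors from edgeR's fit on condition alone, open squares from the fit paired by line, and coloured symbols for the log2 ratio within each line, with dotted lines at 1.5-fold. GPC6 and SDC4 lay past the dotted line on the lower side in both fits, and the ratios of line C were the nearest to 0 among the lines for EXT1, EXT2, SDC4, GPC4 and GPC6.

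Glypicans carry their chains close to the membrane and are known for shaping the range of Wnt, Hedgehog, BMP and FGF signals. GPC6 had the smallest adjusted p of the 10 in both fits. The gene is very long, on chromosome 12 from 67702246 to 68933809, a span of 1231564 bases. On MEF the level was 72.4 CPM in line A, 55.8 in C, 56.4 in D and 55.2 in E, and in feeder-free culture it was 45.8, 38.1, 28.4 and 23.5 CPM. All feeder-free libraries were below all libraries on MEF, and line A was the highest in both conditions.

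The mean of GPC6 went from 60.0 ± 8.31 CPM to 34.0 ± 9.98 CPM (SD, n = 4), and the log2 fold change was -0.82 (SE 0.21, edgeR unpaired adjusted p = 0.0671). With the pairing it fell by 0.86 on the log2 scale (SE 0.14, edgeR paired adjusted p = 0.00506). The paired call was kept when any one line was left out, at adjusted p of 0.0102 to 0.0259. The unpaired fit called it lower when line A lacked its feeder-free library, at an adjusted p of 0.0370, in a fit that called 490 genes, and gave 0.109 to 0.172 without any other single library, in fits that called 0 to 6 genes, with log2 changes of -0.67 to -0.88.

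Over all genes tested, the change differed with gene span. The 2493 tested genes longer than 100 kb had a median log2 fold change of -0.14. Of these, the paired fit called 218 lower, 8.74 percent, and 137 higher. The 7268 genes shorter than 20 kb had a median of 0.09, with 227 called lower, 3.12 percent, and 471 higher. Of the 10 genes, 6 (EXT1, EXT2, SDC2, GPC3, GPC4 and GPC6) are longer than 100 kb and 4 are between 20 and 100 kb, SDC4 among these with 21402 bases. The part of gene span in the values of GPC6 and EXT1 was not tested. Nor was the part of feeder-derived reads, for which the fibroblast genes above are a limited measure. Among these, COL1A1 was at 292 to 383 CPM on MEF and at 115 to 1033 CPM in feeder-free culture, higher in 2 lines and lower in 2. The genes called in the paired fit went both ways. COL1A2 and PRRX1 were lower, with log2 fold changes of -4.35 and -4.15, and COL3A1 and POSTN were higher, at 2.53 and 2.77. The methods also subtract, for bESCs on MEF, what a pure MEF sample gave.

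GPC4, known as a glypican of stem and progenitor cells, and GPC3, known in fetal tissues and for restraining growth, are neighbours on the X chromosome. GPC4 lies from 17148768 to 17256806 and GPC3 from 17366004 to 17829177. GPC4 was at 684.0 CPM in line A, 696.5 in C, 797.4 in D and 600.9 in E on MEF, and at 525.9, 679.8, 682.3 and 471.9 CPM without feeders. It was lower in 4 of 4 lines, by between 0.04 and 0.38 on the log2 scale, while the lines kept much of their order. The log2 fold change was -0.24 (SE 0.16, edgeR unpaired adjusted p = 0.447) and -0.25 in the paired fit (adjusted p = 0.136).

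GPC3 varied between lines more than between conditions. Its levels on MEF were 5.11 CPM in line A, 3.54 in C, 4.42 in D and 22.9 in E, and without feeders 3.79, 9.49, 4.99 and 10.2 CPM. Line E had a log2 ratio of -1.16 and line C one of 1.41. The log2 fold change was -0.34 (SE 0.61, edgeR unpaired adjusted p = 0.810), and it was 0.71 without the MEF library of line E, so the direction rested on that library. GPC3 overlaps several uncharacterized genes, and no source used here states a strand for the counting.

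The glypicans outside the 10 were read for comparison. GPC2, a glypican known from developing neurons, passed as lower in the paired fit, with a log2 fold change of -0.65 (adjusted p = 0.0147), and was lower in 4 of 4 lines. It missed the call without line D (adjusted p = 0.0518) and without line E, where it fell short of 1.5-fold. GPC1 had a log2 fold change of -0.09, and GPC5 had too few counts to be tested. Of the 5 glypicans tested, GPC1, GPC2, GPC4 and GPC6 were below 0 in the unpaired fit, and GPC3 was too, with the direction that rested on 1 library. The median was -0.34, the value of GPC3 itself, and -0.25 when paired.

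The 5 members lower in all 4 lines shared a pattern over the lines that was noticed after their values had been seen. Line C had the smallest fall for 5 of these 5, where among all 3254 tested genes lower in 4 of 4 lines it had the smallest fall for 39.1 percent. Line A had the largest fall for 3 of them and line E for 2. The log2 ratios of line C were -0.12 for EXT1, -0.02 for EXT2, -0.12 for SDC4, -0.04 for GPC4 and -0.55 for GPC6.

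The genes whose log2 CPM followed GPC6 most closely over the 8 libraries, by Pearson's r among all genes tested, were CCDC171 (0.981), ASPH (0.981), MTPAP (0.978), MARCHF6 (0.974) and PLOD1 (0.974). The 8 points share 4 lines and 2 conditions, so these values describe the libraries and carry no test. All 5 had log2 fold changes below 0, from -0.29 for MTPAP to -0.71 for PLOD1, a collagen lysyl hydroxylase.

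The wider pathway was read over 80 genes in 12 lists, from the linker to lysosomal breakdown, of which 74 could be tested. The unpaired fit called 1 higher and 0 lower, with 7 and 14 at an unadjusted p under 0.05, against 10.2 and 11.4 percent of all genes. With the replicate block 7 of the 74 rose and 8 fell, SDC4 and GPC6 among them, where 5.52 and 4.53 percent of all genes did. Without one line that paired fit called 3 to 8 higher and 3 to 7 lower, with 3 and 3 without line D. The median log2 change over the pathway was 0.03, and the called genes were spread over several steps.

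**Figure D3:**
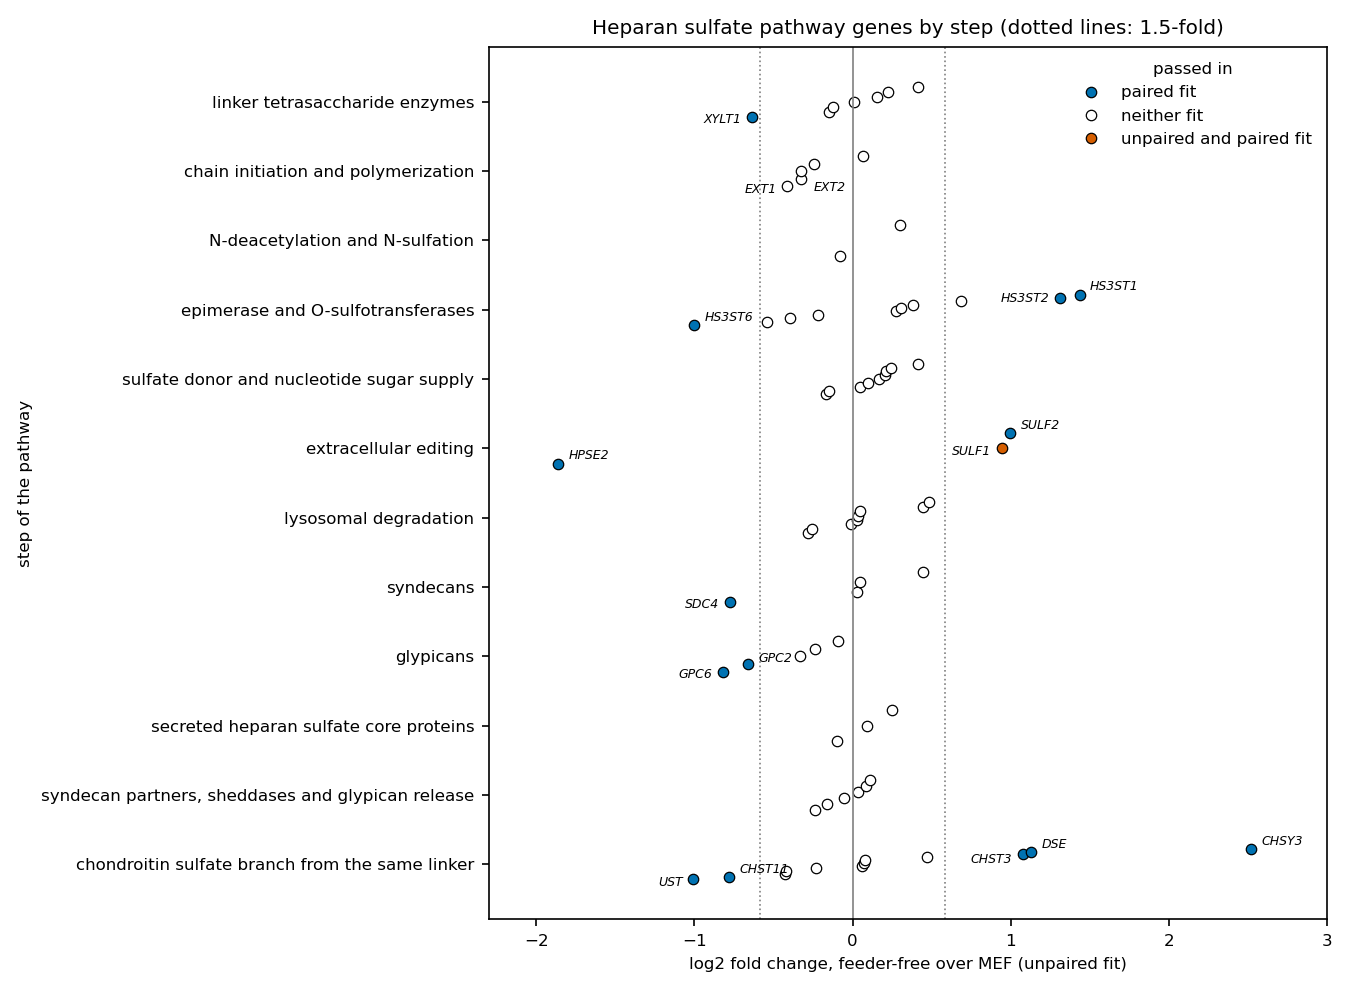
Log2 fold change, feeder-free over MEF from the fit on condition alone, of the 74 tested genes of the pathway, 1 point per gene in rows by step, coloured by the fit in which the gene passed, with dotted lines at 1.5-fold. SULF1 alone passed in both fits, and the genes that passed when paired lay on both sides of 0 within the sulfotransferase, editing and chondroitin rows.

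At the linker, XYLT1, which sets the first xylose on the core protein, fell when paired, by 0.65 on the log2 scale (edgeR paired adjusted p = 0.0113). Its levels were 44.5 to 50.6 CPM on MEF and 23.7 to 37.1 CPM without feeders, with no overlap, and it missed the call without line C (adjusted p = 0.0537) and without line E, where the change was -0.52 and short of 1.5-fold. The other 6 linker genes passed in neither fit, and XYLT2, which has the same activity, had a log2 fold change of -0.15. Among the 5 genes of chain initiation and polymerization 0 passed. In edgeR's unpaired test 3 of them had an unadjusted p under 0.05, all lower, against 11.4 percent of all genes lower and 10.2 percent higher. They were EXTL3 and the members EXT1 and EXT2, already counted above. EXTL3, which adds the first N-acetylglucosamine that commits the chain to heparan sulfate, was at 87.4 to 99.8 CPM on MEF and 71.2 to 83.4 CPM without feeders, a log2 fold change of -0.32 (edgeR unpaired adjusted p = 0.111).

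Among the 10 epimerase and O-sulfotransferase genes tested, 2 rose and 1 fell in the paired fit, against 5.52 and 4.53 percent of all genes. HS2ST1 and HS6ST1, which sulfate the 2-O and 6-O positions used in FGF binding, were lower in 4 of 4 lines, with paired log2 fold changes of -0.54 and -0.41 (adjusted p = 0.0428 and 0.0431 in edgeR's paired test), both short of the fold threshold. HS6ST2, which with EXT1 is on the list that the study chose in part on these libraries, had 5.33 to 6.89 CPM on MEF and 4.98 to 9.39 CPM without feeders, and a log2 fold change of 0.31 (edgeR unpaired adjusted p = 0.496). HS3ST1 and HS3ST2 add the rare 3-O sulfate, for which HS3ST1 is known as the maker of antithrombin sites. HS3ST1 went from 1.04 to 1.71 CPM on MEF to 2.85 to 5.11 CPM without feeders, with no overlap, and rose when paired by 1.42 on the log2 scale (adjusted p = 0.00903). HS3ST2 rose when paired by 1.23 (adjusted p = 0.0340) and HS3ST6 fell by 0.96 (adjusted p = 0.0283). HS3ST2 had as few as 37 counts in a library. Each of the 3 lost its paired call without line D, HS3ST2 also without C or E and HS3ST6 also without A or E.

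Outside the cell, SULF1 and SULF2 remove 6-O sulfates from finished chains and so change which growth factors they hold. SULF1, on chromosome 14 from 33277531 to 33476643, was the pathway gene called without pairing. It was measured on MEF at 12.5 CPM in line A, 9.91 in C, 15.3 in D and 10.1 in E, and without feeders at 24.8, 25.4, 20.4 and 21.3 CPM. The feeder-free lines lay close together, all above those on MEF. SULF1 rose by 0.94 on the log2 scale (SE 0.18, edgeR unpaired adjusted p = 0.0403) and by 0.96 when paired (adjusted p = 0.00754), and the paired call was kept without any one line. The unpaired call was kept when line A lacked its feeder-free library and lost without any other library, at adjusted p of 0.0737 to 0.116, in fits that called 0 to 6 genes in all. The log2 fold change over these fits was 0.86 to 1.09.

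SULF2 rose when paired, by 0.82 on the log2 scale (edgeR paired adjusted p = 0.0269), with the largest gains in lines C and D, from 11.2 to 25.6 CPM and from 8.71 to 21.5 CPM, and the smallest in line A, from 4.13 to 4.79 CPM. Its paired call was lost without line C or D. HPSE, the enzyme that cuts heparan sulfate chains, had 0 counts in all 8 libraries, which at 3 counts allows at most 0.0293 to 0.072 CPM per library. HPSE2, its inactive relative, had 4 to 50 counts on MEF and 0 to 20 without feeders and passed as lower when paired (adjusted p = 0.0479), but not without any one line.

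**Figure D4:**
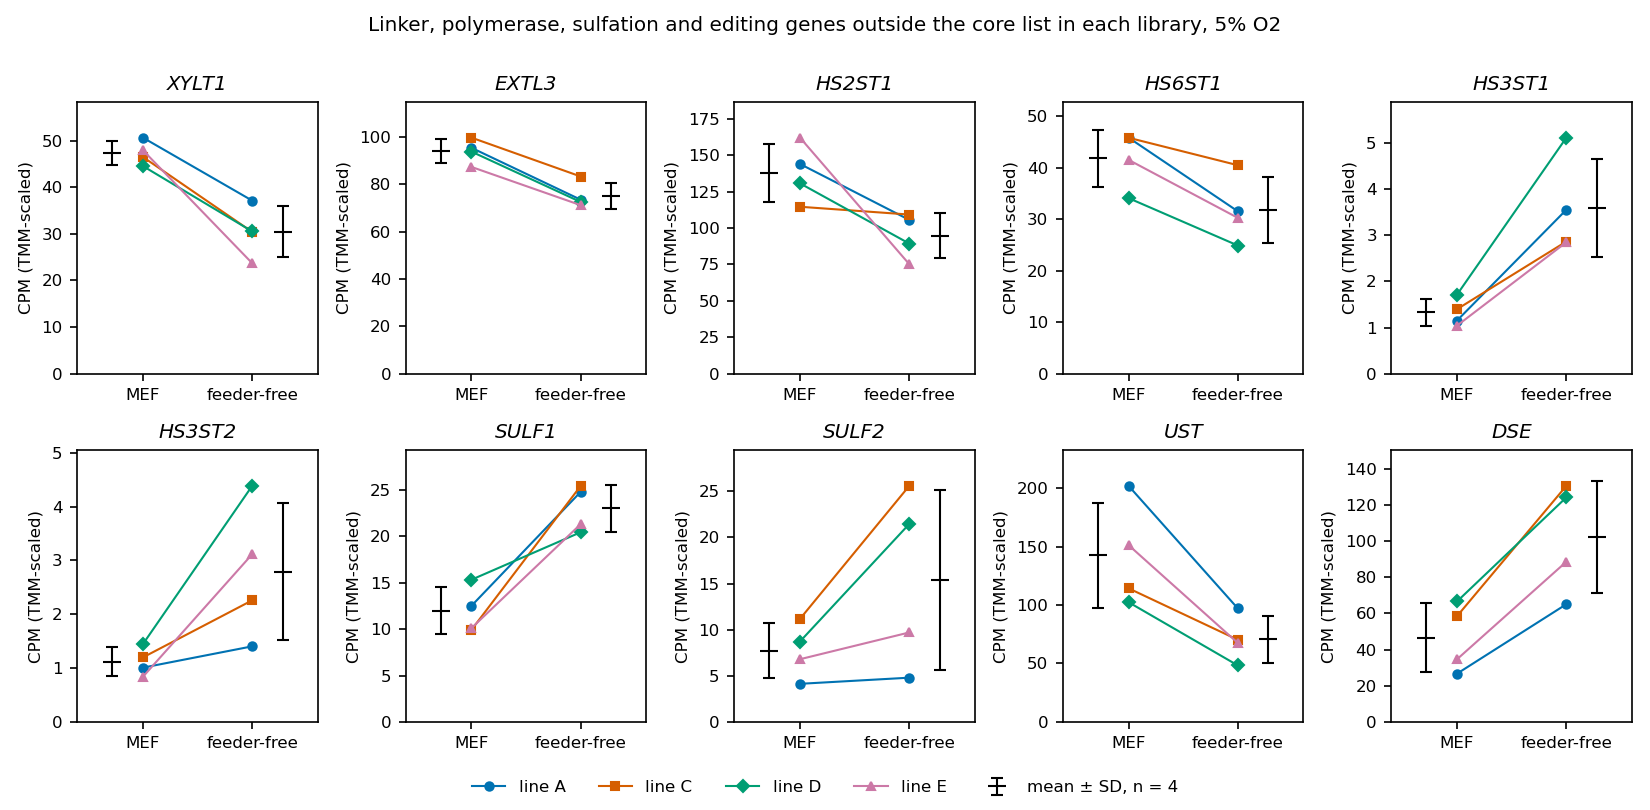
Level (CPM after TMM scaling, linear axis) of 10 further genes of the pathway in the 4 libraries on MEF and the 4 in feeder-free culture, with the libraries of a line joined and the mean ± SD of each group in black. SULF1 and HS3ST1 lay higher and XYLT1, EXTL3, HS2ST1 and UST lower in every feeder-free library than in any on MEF, and DSE was higher in each line although its groups overlap. Several of the genes shown were chosen after their values were seen. Of all 74 tested pathway genes, 8 were separated lower and 3 higher, against 8.36 and 6.21 percent of all genes tested.

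The chondroitin and dermatan sulfate genes, whose chains start from the same linker, included calls in both directions when paired: of 12, 3 rose and 2 fell, against 5.52 and 4.53 percent of all genes. DSE, the epimerase that makes dermatan sulfate, went from 26.7 CPM in line A, 58.5 in C, 66.6 in D and 34.6 in E to 65.1, 130.5, 124.1 and 88.6 CPM, and rose by 1.17 on the log2 scale (edgeR paired adjusted p = 0.000763). UST, a uronyl 2-O-sulfotransferase, went from 202.1, 114.3, 102.5 and 151.3 CPM in the same order to 97.1, 70.2, 48.3 and 67.5 CPM and fell by 1.00 (adjusted p = 0.00139). CHST3, a 6-O-sulfotransferase, rose by 1.02 and CHST11, a 4-O-sulfotransferase, fell by 0.77 (adjusted p = 0.00453 and 0.0130 from the same paired test). The calls of DSE, UST and CHST3 were kept without any one line, and that of CHST11 was lost without line D. CHSY3 also rose when paired, from 4 to 24 counts on MEF to 25 to 464 counts without feeders, but not when line C, D or E was left out.

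Other steps gave no call in either fit. None passed among the 9 genes of sulfate donor and nucleotide sugar supply or the 8 of lysosomal breakdown. Nor did any of the 3 secreted core proteins HSPG2, AGRN and COL18A1, or of the 6 syndecan partners, sheddases and glypican release genes. In the same order, 1, 1, 0 and 0 genes had an unadjusted p under 0.05 in edgeR's test without pairing, against 21.6 percent of all genes. HSPG2, which encodes perlecan, was at 118.7 to 267.2 CPM on MEF and 142.5 to 327.0 CPM without feeders, and was higher in 4 of 4 lines with a log2 fold change of 0.25. ADAM10 and ADAM17, which shed syndecan outer domains, had log2 fold changes of 0.11 and -0.05.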

How the data were processed

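Paired-end RNA sequencing libraries of 4 bESC lines on MEF and in feeder-free culture, in 5% O2, were analysed. The authors deposited raw counts per gene: per the methods, Trimmomatic trimmed the reads, STAR placed them on ARS-UCD2.0, Picard and samtools took out optical duplicates and alignments of MAPQ under 30, and featureCounts counted them (Subread 1.6.2 per the submitters' processing notes). Whether counting used strand, and reads or pairs, is not given in the sources used here. The methods also subtract, for bESCs on MEF, what a pure MEF sample gave on the bovine genome; that sample was not analysed here. That step and the mapping filter could change counts of genes similar in mouse and cow.

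The table lists 32640 genes, of which 3 without values were dropped. Counts were fitted with edgeR 4.0.16 in R 4.3.3 (filterByExpr, TMM, glmQLFit, glmQLFTest) without pairing. P-values were adjusted by Benjamini-Hochberg across the 15744 genes tested, and calls needed both an adjusted p below 0.05 and a 1.5-fold change. CPM are TMM-scaled, and log2 ratios within a line use a prior count of 2. Standard errors were taken from the fold change and the test statistic. Coordinates come from the RefSeq table of ARS-UCD2.0. Sequences of these genes were not used here.

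The line letter pairs the libraries, since the same lines were in both conditions, and the deviations of a line's libraries from their group means correlated at 0.421 to 0.664, against -0.523 to 0.249 between different lines. The replicate block fit adds the line as a factor to the unpaired one. P-values of the unpaired fit treat the libraries as independent, although the same 4 lines are in both conditions. Those of the replicate block fit set the change within lines against the variation left after line and condition. Each line was sequenced once per condition. No 2 libraries of a condition were alike within sampling noise (smallest chi-square per degree of freedom 43.1). The fits were also run on simulated counts to check the code, and no result given here rests on that run.

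The 10 genes and all lists were chosen with earlier results of these data known. The 10 were all described. Pathway genes were named when called in either fit, with HS6ST2 for its place in the study's list, and the 5 genes most like the called member with the largest paired change. Other genes named (EXTL3, HS2ST1, HS6ST1, HPSE, XYLT2, NDST2, GPC1, HSPG2, the sheddases and the marker genes) were chosen after their values were seen. Alternatives were other filters on low counts, RLE size factors or no scaling, the likelihood ratio test, DESeq2 1.42.0, limma-voom 3.58.1, the replicate block, other fold thresholds, and each library or line left out.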

Additional observations from a re-analysis of the deposited data

Results flagged for a closer look

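Among 48 groups of 4 libraries examined for the genes named (10 members and 14 further pathway genes), 2 held a library far from the other 3 in CPM by Dixon's ratio, where about 2.4 are given by chance.

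GPC3 was at 22.86 CPM in the MEF library of line E, against 3.54 to 5.11 CPM in the other libraries on MEF. GPC6 was at 72.4 CPM in the MEF library of line A, against 55.2 to 56.4 CPM in the other 3. Without that library the unpaired log2 fold change of GPC6 was -0.72.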

How the results depend on the processing

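The number of members called higher was 0 under every setting that kept all libraries, and 0 to 1 when a library or line was left out. The number called lower was 0 with edgeR's test on condition alone, RLE size factors, no scaling, either filter, limma-voom and other fold thresholds. It was 2 with the likelihood ratio test, DESeq2 and the replicate block, 2 in the paired fits added after the data were examined (RLE, no scaling, no filter, no fold threshold), and 0 to 2 when a library or line was left out. For the pathway, 1 higher and 0 lower became 2 and 1 with at least 10 counts in every library, 4 and 4 with the likelihood ratio test, 6 and 5 with DESeq2, and 7 and 8 with the replicate block. Over all genes tested, those settings in the same order called 199, 448, 695 and 869 higher and 213, 389, 516 and 713 lower. The test on condition alone called 114 higher and 158 lower. The pathway count was 0 higher when a 2-fold change was required. The paired fit gave 7 higher with RLE, no scaling, no filter or no fold threshold, and 8, 7, 8 and 11 lower. Leaving out a library or line gave 0 to 8 higher and 0 to 7 lower. Fewer samples or genes are part of the construction of those settings, and for the others the cause was not tested. Of the named genes, 3 changed direction: with a library or line left out the log2 fold change of SDC2 was -0.10 to 0.12, that of SDC3 -0.11 to 0.17 and that of GPC3 -0.60 to 0.71, and GPC3 was at 0.024 and 0.0066 in the paired fit with no scaling and with no filter. With 44268717 or more counts per library, depth limited only genes of few counts such as HPSE2 and CHSY3.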

Other observations

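Of the 8 genes of lysosomal heparan sulfate breakdown, 3 (NAGLU, GUSB and IDUA) were low in line D in both conditions, a pattern noticed after the values had been seen. NAGLU, the N-acetylglucosaminidase of that pathway, had 69 counts (1.43 CPM) on MEF and 0 counts without feeders in line D, although the feeder-free library of line D was the deepest. In lines A, C and E it was at 21.9, 12.8 and 11.6 CPM on MEF and at 20.7, 9.87 and 18.2 CPM without feeders. GUSB, beta-glucuronidase, was at 3.22 and 0.518 CPM in line D, against 10.5 and 14.1 CPM in line A, 40.9 and 63.8 CPM in line C and 22.8 and 30.2 CPM in line E, on MEF and without feeders in each. IDUA, the iduronidase, which overlaps SLC26A1, was at 0.826 and 0.0879 CPM in line D, against 1.36 to 5.68 CPM in the other 6 libraries. The other 5 did not share this: HGSNAT was highest in line D, at 29.4 and 31.5 CPM, and was higher without feeders in 4 of 4 lines, IDS was lower in 4 of 4 lines, and ARSG was at 4.598 to 5.956 CPM in all libraries. No test was run between lines, each of which has 1 library per condition.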
